A study of Mus musculus with 8 samples.

Results

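Hcar2, C5ar1, C3ar1, Fpr1, Fpr2, Ptafr, Gpr84 and Gpr132 encode G protein-coupled receptors through which myeloid cells read chemoattractants and metabolites. These 8 genes were taken by symbol from the 54532 genes of the deposited table, and each symbol matched 1 entry. They were chosen for their levels in METTL3-HKD against METTL3-Flox livers, so their differences between the groups are given as a description, and no test of them is offered as support. The data were RNA sequencing of whole liver, with 4 mice labelled METTL3-HKD and 4 labelled METTL3-Flox. All 8 livers had 1 h of partial warm ischemia followed by 6 h of reperfusion, and no sham liver was among the sequenced samples. METTL3 is the catalytic subunit of the enzyme that writes N6-methyladenosine on mRNA. METTL3-Flox mice (METTL3 flox/flox) carried a floxed exon 4 of METTL3. METTL3-HKD mice (METTL3 flox/-; Alb-iCre) also carried iCre under the albumin promoter, which is active in hepatocytes, and came from the same litters as the controls, on a C57BL/6 background. The paper describes the METTL3-HKD (hepatocyte-specific knockdown) mice as heterozygotes in which METTL3 expression in the liver was lowered. Only the METTL3-HKD mice carried iCre, so effects of iCre itself and of the METTL3 allele cannot be told apart. The age and sex of these mice are not given in the sources used here.

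The receptors couple mainly to Gi proteins, and in neutrophils, monocytes and macrophages their activation starts chemotaxis, the oxidative burst or changes in cytokine output. C5ar1 and C3ar1 bind the complement fragments C5a and C3a, while Fpr1 and Fpr2 bind formylated peptides released by bacteria and by mitochondria of injured cells. Ptafr binds platelet-activating factor, Gpr132 responds to lysophospholipids and oxidized fatty acids, Hcar2 binds the ketone body β-hydroxybutyrate and niacin, and Gpr84 binds medium-chain fatty acids. In the injured liver, such ligands can come from dying hepatocytes, from plasma and from leukocytes.

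The receptor genes are spread over 7 chromosomes (GRCm38, coordinates as in the deposited table and the same in GENCODE M21). Hcar2 (ENSMUSG00000045502) lies on chromosome 5 at chr5:123863570-123865499 on the minus strand and has 1 exon. C5ar1 (ENSMUSG00000049130) lies at chr7:16246743-16259540 on the minus strand, and its neighbour C5ar2 begins 2588 bases away. C3ar1 (ENSMUSG00000040552) lies at chr6:122847138-122856161 on the minus strand. Fpr1 (ENSMUSG00000045551, chr17:17876471-17883940, minus strand) and Fpr2 (ENSMUSG00000052270, chr17:17887824-17893952, plus strand) are neighbours that face away from each other with 3883 bases between them. Ptafr (ENSMUSG00000056529) lies at chr4:132564067-132582683 on the plus strand. Gpr84 (ENSMUSG00000063234) lies at chr15:103308235-103310612 on the minus strand, and Gpr132 (ENSMUSG00000021298) at chr12:112850873-112868228 on the minus strand.

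Promoters of 300 bases, from 250 before to 50 after the annotated start, were read from RefSeq on GRCm38.p6, in which 7 of the 8 receptors had an entry. Hcar2 had none, so its promoter was not searched. The Gpr132 window, chr12:112860867-112861166 (minus strand), lies inside the gene, whose 5′ end is at 112868228 in the deposited coordinates. The motif results for Gpr132 are thus for an internal start. The promoters of the complement receptors are shown because one receptor differed clearly between the groups and the other did not, and those of Fpr1 and Fpr2 because the genes start close to each other on opposite strands. Each is printed 5′ to 3′ on the strand of its gene, from chr7:16259289-16259588 (minus strand) for C5ar1, chr6:122856108-122856407 (minus strand) for C3ar1, chr17:17883890-17884189 (minus strand) for Fpr1 and chr17:17887574-17887873 (plus strand) for Fpr2. Capitals mark matches on either strand to the AP-1 motif (TGANTCA) or to the NF-kB motif, searched as GGG and TTTCC with any 2 bases between them.
C5ar1: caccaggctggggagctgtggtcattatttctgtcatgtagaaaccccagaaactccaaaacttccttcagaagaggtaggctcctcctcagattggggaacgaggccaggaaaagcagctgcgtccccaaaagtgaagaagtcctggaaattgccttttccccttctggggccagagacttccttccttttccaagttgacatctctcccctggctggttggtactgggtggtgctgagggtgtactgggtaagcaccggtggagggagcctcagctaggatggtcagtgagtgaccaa
C3ar1: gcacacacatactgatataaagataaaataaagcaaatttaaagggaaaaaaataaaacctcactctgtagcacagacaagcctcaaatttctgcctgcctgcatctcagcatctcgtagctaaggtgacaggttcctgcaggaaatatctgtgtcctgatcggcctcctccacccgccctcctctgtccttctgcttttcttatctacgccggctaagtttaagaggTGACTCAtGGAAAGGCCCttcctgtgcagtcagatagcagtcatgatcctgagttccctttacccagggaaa
Fpr1: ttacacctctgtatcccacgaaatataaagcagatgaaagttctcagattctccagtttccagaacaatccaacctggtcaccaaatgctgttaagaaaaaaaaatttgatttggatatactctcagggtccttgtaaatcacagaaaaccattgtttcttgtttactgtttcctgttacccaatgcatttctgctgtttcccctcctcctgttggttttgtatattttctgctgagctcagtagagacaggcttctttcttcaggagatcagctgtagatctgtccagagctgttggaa
Fpr2: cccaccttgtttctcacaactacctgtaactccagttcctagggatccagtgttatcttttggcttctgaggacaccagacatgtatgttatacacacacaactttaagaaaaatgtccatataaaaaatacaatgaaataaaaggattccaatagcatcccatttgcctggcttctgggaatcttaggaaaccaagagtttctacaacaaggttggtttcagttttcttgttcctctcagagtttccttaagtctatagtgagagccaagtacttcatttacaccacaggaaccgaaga

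Among the 7 promoters, C3ar1 alone held an AP-1 match, which begins 22 bases before the start, and it also held the only NF-kB match, which begins 14 bases before the start and does not overlap the AP-1 match. Of all 32851 promoters in the table, 7.81% held the AP-1 letters and 1.63% the NF-kB letters. A relaxed NF-kB pattern (GGG and CC with any 5 bases between them), which contains the stricter one, was found in C3ar1 and Gpr132 and in 50.8% of all promoters. The letters TATAAA were found in the promoters of C3ar1, Fpr1 and Fpr2 and in 13.6% of all promoters. A PU.1-like motif (GAGGAAG, in 13.6% of all promoters), a C/EBP-like motif (TTGCNNAA, 10.8%) and the CRE (TGACGTCA, 1.79%) were in 0 of the 7 promoters. These matches describe the letters in these windows and do not show binding.

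Levels are given as FPKM (fragments per kilobase of gene and library size, as scaled by the authors), which allows genes of different length to be compared. The FPKM steps gave whole reads, and 15861245 to 18434488 reads per liver lay on genes. Of 16645 genes tested with limma on log2(FPKM + 0.1), 9.05% were higher and 6.63% lower in METTL3-HKD at an adjusted p under 0.05, and "passed", "rose" and "fell" refer to this threshold. Mettl3 itself, counted over the whole gene, lay between 1.17 and 1.56 FPKM in METTL3-HKD and between 1.16 and 1.84 FPKM in METTL3-Flox, so its level did not separate the groups and does not check the genotype labels. The hepatocyte markers summed to 22396 to 33036 FPKM in the 8 livers, as fits the labelled tissue.

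All 8 receptors passed the minimum mean of 0.1 FPKM, Gpr132 only through its level in METTL3-HKD. The fitted log2 fold changes (METTL3-HKD against METTL3-Flox, on the log2(FPKM + 0.1) scale) ran from 0.21 for Fpr1 to 5.24 for Hcar2, with a median of 1.86 beside -0.0028 over all genes tested. Hcar2, C5ar1, Ptafr and Gpr132 were higher past the threshold, which makes 4 of 8 beside 9.05% of all genes, and C3ar1, Fpr1, Fpr2 and Gpr84 did not pass. The 4 that passed also had a log2 fold change of at least 1, as 4.70% of all genes did, and 0 receptors were lower by that rule, beside 1.52% of all genes. The groups did not overlap for 5 of the 8, those 4 and Fpr2, beside 12.7% of all genes with METTL3-HKD above, and METTL3-HKD lay entirely below for 0 receptors, beside 9.95% of all genes. The receptors were chosen on this contrast, so nothing is read from these shares. In whole liver, more cells that carry a receptor and more receptor mRNA per cell cannot be told apart.

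**Figure D1:**
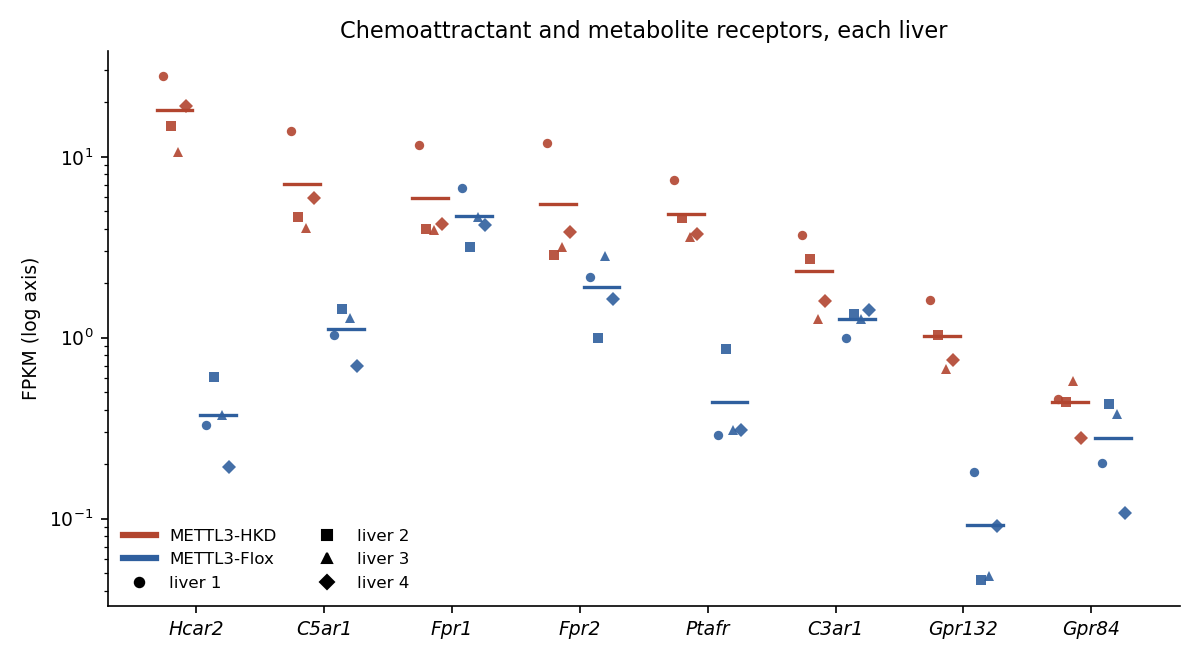
FPKM of the 8 receptors in each liver (log scale), METTL3-HKD and METTL3-Flox side by side, with each symbol 1 mouse and the line at the group mean (n = 4 each). The groups lie far apart for Hcar2, Ptafr and Gpr132, and they overlap for C3ar1, Fpr1 and Gpr84.

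C5ar1, the main signalling receptor for C5a, was at 13.9, 4.63, 4.03 and 5.88 FPKM in livers 1 to 4 of METTL3-HKD and at 1.04, 1.44, 1.28 and 0.701 FPKM in livers 1 to 4 of METTL3-Flox, and the values of other genes below follow the same order of livers. The groups did not overlap, and METTL3-HKD liver 1 stood well above the other METTL3-HKD livers. The means were 7.11 ± 4.60 and 1.12 ± 0.323 FPKM (SD, n = 4), with a log2 fold change of 2.43 (SE 0.374). Reads on the gene numbered 187 to 719 in METTL3-HKD and 29 to 60 in METTL3-Flox. Without METTL3-HKD liver 1, the log2 fold change was 2.05.

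C3ar1, the receptor for C3a, was at 3.70, 2.74, 1.27 and 1.59 FPKM in METTL3-HKD. In METTL3-Flox it was at 0.997, 1.35, 1.27 and 1.43 FPKM. METTL3-HKD livers 1, 2 and 4 lay above all METTL3-Flox livers, while METTL3-HKD liver 3 lay among them. The log2 fold change was 0.73 (SE 0.304), which did not pass, and it passed at 0.96 only when METTL3-HKD liver 3 was left out. The C3ar1 promoter holds the AP-1 and NF-kB letters next to each other near the start, and the C5ar1 window holds neither. Whether these letters bear on the levels was not tested. The ratio of C5ar1 to C3ar1 lay between 1.69 and 3.76 in METTL3-HKD and between 0.491 and 1.07 in METTL3-Flox, with no overlap.

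C5ar2, the C5a receptor that lies next to C5ar1 and does not signal through G proteins, was at 1.20, 1.02, 1.29 and 0.967 FPKM in METTL3-HKD and at 1.24, 1.06, 0.702 and 0.872 FPKM in METTL3-Flox. Its groups overlapped (log2 fold change 0.21, SE 0.189, limma adjusted p = 0.490). The C5ar1 to C5ar2 ratio ran from 3.12 to 11.6 in METTL3-HKD and from 0.804 to 1.82 in METTL3-Flox.

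Fpr1, the high-affinity formyl peptide receptor, was at 11.6, 3.96, 3.93 and 4.23 FPKM in METTL3-HKD and at 6.75, 3.18, 4.67 and 4.18 FPKM in METTL3-Flox. Apart from METTL3-HKD liver 1, the METTL3-HKD livers lay within the range of the METTL3-Flox livers. The log2 fold change was 0.21 (SE 0.363), and without METTL3-HKD liver 1 it was -0.16. Fpr1 was thus the receptor with the smallest difference, and its direction rested on 1 liver.

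Fpr2, which binds formyl peptides and also serum amyloid A and annexin A1, was at 11.9, 2.88, 3.16 and 3.82 FPKM in METTL3-HKD. In METTL3-Flox it was at 2.17, 1.00, 2.84 and 1.63 FPKM. The groups did not overlap, but the lowest METTL3-HKD liver (2.88) and the highest METTL3-Flox liver (2.84) were almost equal. The log2 fold change of 1.29 (SE 0.462) did not pass and was 0.83 without METTL3-HKD liver 1. Fpr2 shares 48 exon bases with Fpr3 on the same strand, and Fpr3 had 0 to 2 reads in any liver. Although Fpr1 and Fpr2 start within a few kilobases of each other, the Fpr2 to Fpr1 ratio did not overlap between the groups, at 0.727 to 1.03 in METTL3-HKD and 0.315 to 0.609 in METTL3-Flox.

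Ptafr was at 7.46, 4.60, 3.61 and 3.74 FPKM in METTL3-HKD and at 0.290, 0.868, 0.307 and 0.307 FPKM in METTL3-Flox. All METTL3-HKD livers were above all METTL3-Flox livers, among which liver 2 stood above the other 3. The means were 4.85 ± 1.79 and 0.443 ± 0.283 FPKM (SD, n = 4), from 237 to 546 and from 15 to 51 reads per liver, and the log2 fold change was 3.24 (SE 0.339). It was 3.02 to 3.56 when single livers were left out.

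Gpr132 was at 1.61, 1.04, 0.673 and 0.753 FPKM in METTL3-HKD and at 0.181, 0.0456, 0.0485 and 0.0915 FPKM in METTL3-Flox. The groups were far apart, and METTL3-HKD liver 1 was again the highest. The METTL3-Flox levels rest on 2 to 7 reads per liver, and the METTL3-HKD levels on 33 to 88. Because of these low counts the fitted log2 fold change, 2.53 (SE 0.327), depends on the value added before the logarithm. It was 0.87 with 1 FPKM added and 3.44 with voom on the rebuilt reads.

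Hcar2 was at 27.9, 14.8, 10.6 and 19.2 FPKM in METTL3-HKD and at 0.328, 0.609, 0.375 and 0.193 FPKM in METTL3-Flox. The lowest METTL3-HKD liver was far above the highest METTL3-Flox liver. The means of 18.1 ± 7.41 and 0.376 ± 0.173 FPKM (SD, n = 4) stood in a ratio of 48.2, and the log2 fold change was 5.24 (SE 0.332). The gene had 371 to 1085 reads in METTL3-HKD and 6 to 19 in METTL3-Flox. Leaving out single livers gave log2 fold changes of up to 5.46 and down to 5.003, and adding 1 FPKM before the logarithm lowered it to 3.72.

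Gpr84 was at 0.461, 0.439, 0.578 and 0.281 FPKM in METTL3-HKD and at 0.204, 0.431, 0.381 and 0.108 FPKM in METTL3-Flox. The groups overlapped, and the log2 fold change of 0.57 (SE 0.341) did not pass. Gpr84 had 9 to 18 reads in each METTL3-HKD liver and 3 to 12 in each METTL3-Flox liver. The antisense gene Gm49482 shares 681 exon bases with Gpr84 and was listed at 0 in all 8 livers. The strand setting of the counting is not given in the sources used here, so reads of the pair cannot be told apart. Both metabolite receptors were below 1 FPKM in every METTL3-Flox liver, yet the Hcar2 to Gpr84 ratio was 18.4 to 68.2 in METTL3-HKD and 0.983 to 1.79 in METTL3-Flox.

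**Figure D2:**
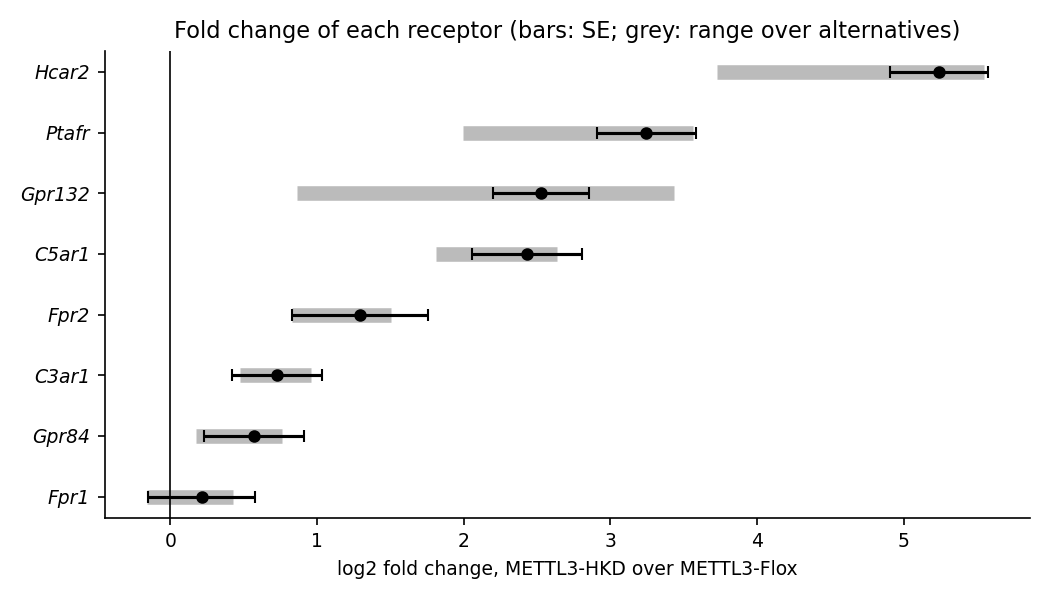
Log2 fold change of each receptor, METTL3-HKD against METTL3-Flox, with its SE as the bar around the point and the lowest to highest values over the alternative settings in grey. The estimates run from 0.21 for Fpr1, whose range crosses 0, to 5.24 for Hcar2.

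The order of the receptors differed between the groups. In METTL3-HKD livers the means ranked, from the highest, Hcar2, C5ar1, Fpr1, Fpr2, Ptafr, C3ar1, Gpr132 and Gpr84. Most neighbours in this order kept their places in 4 of 4 livers, but Fpr1 was above Fpr2 in 3 of 4 and Fpr2 above Ptafr in 2 of 4, so these 3 did not differ beyond their spread. In METTL3-Flox livers the order was Fpr1, Fpr2, C3ar1, C5ar1, Ptafr, Hcar2, Gpr84 and Gpr132. Fpr1 was above Fpr2 in 4 of 4 METTL3-Flox livers, whereas C3ar1 was above C5ar1 in 1 of 4 and Ptafr above Hcar2 in 2 of 4. Hcar2 made up 41.1% ± 5.66 of the summed receptor FPKM in METTL3-HKD and 3.79% ± 2.07 in METTL3-Flox (SD, n = 4). For Fpr1 the shares were 12.7% ± 1.99 and 45.5% ± 8.93. The sum over the 8 receptors was 45.2 ± 22.7 FPKM in METTL3-HKD and 10.2 ± 1.64 FPKM in METTL3-Flox.

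METTL3-HKD liver 1 was the highest of its group for 7 of the 8 receptors, and METTL3-HKD liver 3 was the lowest for 6 and the highest for Gpr84. No METTL3-Flox liver led for most receptors, with liver 2 the highest for 4. Scaling the libraries to the reads on genes, in place of the deposited scaling, raised the median log2 fold change over all tested genes by 0.20 (from -0.0028 to 0.19). Relative to that shift the receptors kept their values, for example 0.43 for Fpr1 and 5.43 for Hcar2.

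Because receptor mRNA of whole liver depends on which cells are present, the levels of marker genes of 10 cell types were set beside the receptors. Neutrophil markers differed most, and 10 of the 11 tested were higher (beside 9.05% of all genes). Among these, Ly6g reached the minimum mean only through METTL3-HKD, with 4 to 64 reads per liver against 0 to 2 in METTL3-Flox. The call of Ly6g is thus not offered as support. S100a9, a calcium-binding protein abundant in neutrophils, was at 867, 223, 195 and 326 FPKM in METTL3-HKD and at 20.5, 14.5, 6.55 and 14 FPKM in METTL3-Flox. Csf3r, the receptor for granulocyte colony-stimulating factor, was at 15.1, 7.99, 7.56 and 9.50 FPKM against 0.838, 1.17, 0.984 and 1.12 FPKM. The 12 neutrophil markers summed to 1668, 391, 340 and 562 FPKM in METTL3-HKD and to 46.1, 26.7, 13.2 and 25.5 FPKM in METTL3-Flox. From highest to lowest the METTL3-HKD livers thus ran 1, 4, 2 and 3, which was also their order for Hcar2, C5ar1 and Fpr1. The other 5 receptors ranked them otherwise, with 1, 2, 4 and 3 for Ptafr, C3ar1 and Gpr132, 1, 4, 3 and 2 for Fpr2, and 3, 1, 2 and 4 for Gpr84. No neutrophil marker was at 0 in all livers of a group, and 9 to 11 markers were higher past the threshold under every alternative, with 10 of them without METTL3-HKD liver 1.

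Of the 8 monocyte markers, Ccr2, Chil3, F13a1 and Vcan rose and 4 did not pass. Their sum did not separate the groups (257.7 to 339.7 FPKM against 273.3 to 313.5 FPKM) because Fn1, which hepatocytes also express, made up most of it. Weighted equally, as a mean of log2 values, the monocyte markers did separate the groups, with a ratio of 3.63 (unadjusted exact permutation p = 0.0286). Of the 8 Kupffer cell markers 7 fell, beside 6.63% of all genes, and Marco did not pass. This count was less stable than that of the neutrophil markers, since leaving out any liver left 0 to 5 of the 8, with 0 without METTL3-Flox liver 4, and scaling to the reads on genes or testing with no minimum mean left 1 and 3. Clec4f, a lectin of Kupffer cells, was at 30.4, 36.7, 17.8 and 15.5 FPKM in METTL3-HKD and at 103, 45.1, 48.0 and 52.5 FPKM in METTL3-Flox. The Kupffer cell sum was 112 to 166 FPKM in METTL3-HKD and 224 to 435 FPKM in METTL3-Flox, and the macrophage sum was 104 to 184 and 168 to 356 FPKM, with C1qc and Mrc1 lower past the threshold (1 of the 8 on leaving out any liver except METTL3-Flox liver 2). Of 6 pan-leukocyte markers, Ptprc and Coro1a rose (1 of 6 passed on leaving out any liver except METTL3-HKD liver 3, without which 4 passed), and the sum was 37.4 to 132 FPKM in METTL3-HKD and 24.2 to 40.6 FPKM in METTL3-Flox.

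The exact permutation test of the sums over the 70 arrangements of 4 against 4 livers, two-sided, cannot give a p under 0.0286. Neutrophil and Kupffer cell sums reached it (p = 0.0286 each, 0.143 after adjustment over the 10 lists, exact permutation test), so no list passed after adjustment. The other 8 lists had p-values from 0.0571 for macrophage and pan-leukocyte markers to 0.943 for endothelial markers in the same exact permutation test. As means of log2 values, the hepatocyte list, like the monocyte list, reached the smallest p (ratio 0.770, unadjusted exact permutation p = 0.0286), and the neutrophil ratio was 13.1 in place of 26.5. Of the T and NK cell markers Il7r rose and 4 of the 5 tested did not pass, and of the B cell markers 0 of 2 tested passed in limma, with 0 at an unadjusted p under 0.05. Hnf4a was the only one of 8 hepatocyte markers that fell, 0 of 7 endothelial markers passed (1 had an unadjusted p under 0.05 in limma), and of 6 stellate cell markers Des rose while Lrat and Colec11 fell. The part of these cell types in the receptor differences was not tested.

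**Figure D3:**
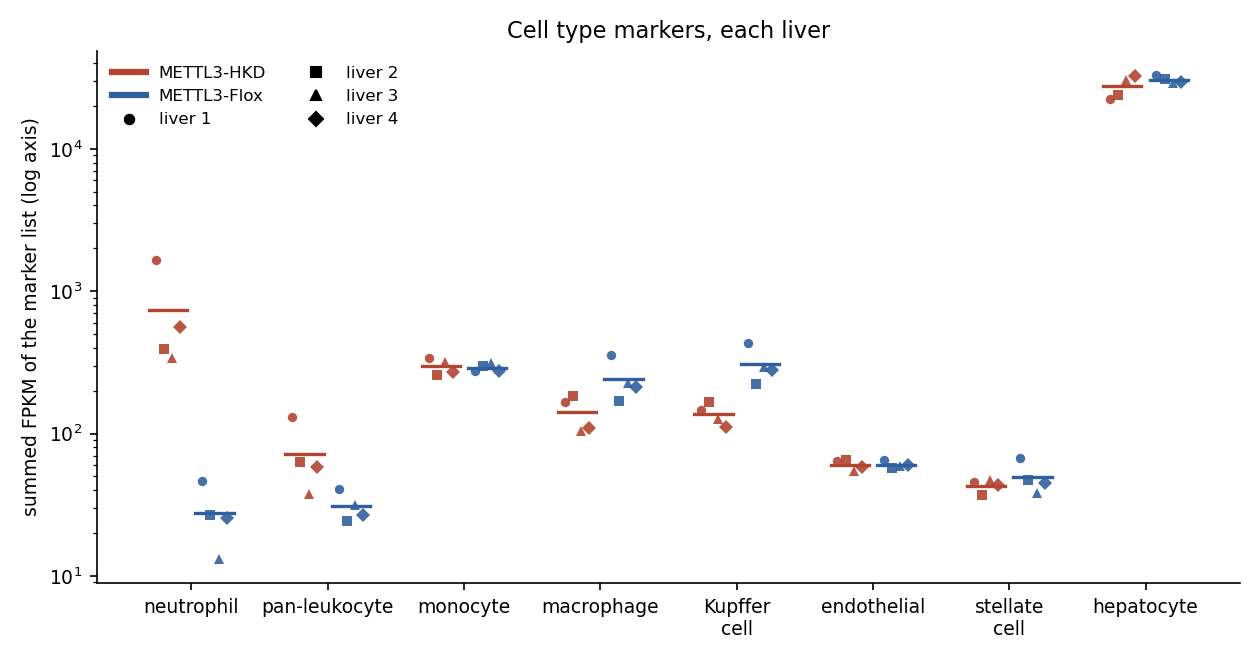
Summed FPKM of the marker genes of 8 cell types in each liver (log scale), with each symbol 1 mouse and the line at the group mean (n = 4 each). T and NK cell and B cell markers, at low levels, are not drawn. Neutrophil sums are 340 to 1668 FPKM in METTL3-HKD and 13.2 to 46.1 FPKM in METTL3-Flox, and Kupffer cell sums lie lower in METTL3-HKD.

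Set against the pan-leukocyte markers, the receptors fell into different patterns. Hcar2 amounted to 21.2% to 33.1% of the pan-leukocyte sum in METTL3-HKD and to 0.721% to 2.51% in METTL3-Flox. C5ar1 amounted to 7.36% to 10.8% against 2.56% to 5.96%, Ptafr to 5.67% to 9.64% against 0.715% to 3.58%, and Gpr132 to 1.22% to 1.80% against 0.154% to 0.447%. For these 4 receptors, METTL3-HKD was higher with no overlap. Fpr1 had the opposite order, with 6.30% to 10.5% in METTL3-HKD and 13.1% to 16.6% in METTL3-Flox. C3ar1, Fpr2 and Gpr84 overlapped between the groups on this scale.

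Set against the neutrophil markers, whose sum differed more than any receptor except Hcar2, Hcar2, Ptafr and Gpr132 overlapped between the groups. In METTL3-HKD this sum had a mean of 740 FPKM, with means of 403 FPKM for S100a9 and 223 FPKM for S100a8. In METTL3-Flox it was 27.9 FPKM, with 13.9 and 9.33 FPKM. Ratios to the neutrophil sum thus mostly follow S100a8 and S100a9, and single markers were not used as the scale. Hcar2 amounted to 1.68% to 3.78% of the neutrophil sum in METTL3-HKD and to 0.711% to 2.85% in METTL3-Flox. C5ar1 amounted to 0.834% to 1.19% against 2.26% to 9.72%, and Fpr1 to 0.693% to 1.16% against 11.9% to 35.5%, so that both were lower in METTL3-HKD relative to these markers. C3ar1, Fpr2 and Gpr84 were likewise lower in every METTL3-HKD liver. Set against the macrophage markers, all receptors but Gpr84 were higher in every METTL3-HKD liver. These ratios describe the 8 livers, and which cells carried the receptor mRNA was not tested.

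**Figure D4:**
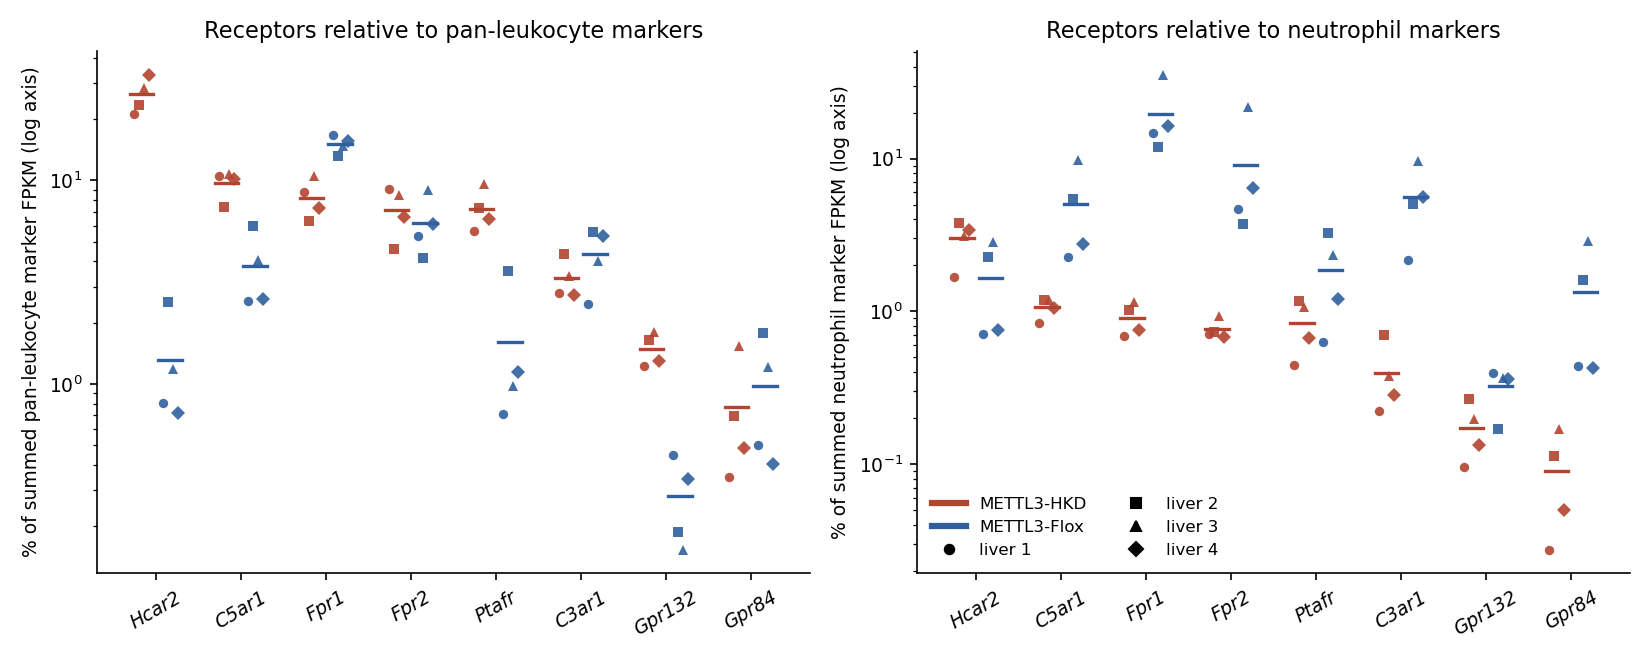
Each receptor as a percentage of the summed FPKM of pan-leukocyte markers (left) and neutrophil markers (right) in each liver (log scale, each symbol 1 mouse, line at the group mean, n = 4). Hcar2 is higher in METTL3-HKD relative to pan-leukocyte markers and overlaps relative to neutrophil markers, and Fpr1 is lower relative to both. S100a8 and S100a9 make up most of the neutrophil sum.

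A list of 33 further receptors for complement, formyl peptides, lipids, protons, nucleotides and metabolites was compared in the same fit. Of these, 20 reached the minimum mean and 6 were listed at 0 in all livers. In the 20 tested, 3 rose (beside 9.05% of all genes), 0 fell (beside 6.63%) and 17 did not pass, with a median log2 fold change of 0.32. Ccrl2, a chemerin-binding receptor that does not signal through G proteins, was at 3.67, 5.35, 3.35 and 2.75 FPKM in METTL3-HKD and at 0.271, 0.881, 1.22 and 0.837 FPKM in METTL3-Flox. It rose by a log2 fold change of 2.20 (SE 0.374, limma adjusted p = 0.00894). Gpr35, for which kynurenic acid is a ligand, was at 4.22, 1.80, 0.972 and 2.01 FPKM in METTL3-HKD and at 0.494, 0.576, 0.612 and 0.398 FPKM in METTL3-Flox (log2 fold change 1.76, SE 0.368, limma adjusted p = 0.0170).

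Ltb4r1, the high-affinity leukotriene B4 receptor, was at 4.64, 1.09, 1.03 and 2.97 FPKM in METTL3-HKD and at 0.404, 0.888, 0.472 and 0.490 FPKM in METTL3-Flox. Its log2 fold change was 1.72 (SE 0.467, limma adjusted p = 0.0398), and the call was kept in 6 of 17 alternatives. Without METTL3-Flox liver 4, 1 of the 20 genes passed. METTL3-HKD lay above METTL3-Flox without overlap for these 3 of the 20 tested receptors, beside 12.7% of all genes, so nothing is read from it. METTL3-HKD liver 1 was the highest for Gpr35 and Ltb4r1 but not for Ccrl2. Among the receptors that did not pass were P2ry2, a receptor for extracellular ATP and UTP (log2 fold change 0.44, limma adjusted p = 0.0574), the succinate receptor Sucnr1 (-0.32), P2ry13, a receptor for ADP (-0.70), and the chemerin receptor Cmklr1 (-0.04).

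The 23 genes that make, cleave or clear ligands of the receptors all reached the minimum mean. Of these 2 rose (beside 9.05% of all genes), 4 fell (beside 6.63%) and 17 did not pass, and the median log2 fold change was -0.19. The 4 that fell encode plasma proteins of the complement system that the liver makes. Hc, the C5 protein from which C5a is cut, was at 81.2, 87.3, 153 and 124 FPKM in METTL3-HKD and at 194, 197, 239 and 202 FPKM in METTL3-Flox (log2 fold change -0.94, SE 0.199, limma adjusted p = 0.0174). C2 was at 5.11, 5.45, 5.89 and 5.27 FPKM in METTL3-HKD and at 9.67, 9.09, 10.2 and 8.78 FPKM in METTL3-Flox (-0.79, SE 0.0890, limma adjusted p = 0.00272). The mRNA of the C5a receptor C5ar1 and that of its ligand precursor Hc thus differed in opposite directions, each without overlap.

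C4b fell from 347 ± 25.7 FPKM in METTL3-Flox to 214 ± 31.3 FPKM in METTL3-HKD (SD, n = 4, log2 fold change -0.71, limma adjusted p = 0.0108), although reads of C4b and its close copy C4a may be split between them. Cpn1, the catalytic chain of the carboxypeptidase that inactivates C3a and C5a, fell from 89.1 ± 6.96 to 65.9 ± 7.62 FPKM (log2 fold change -0.44, limma adjusted p = 0.0310), a call kept in 10 of 17 alternatives. C3, the precursor of the C3ar1 ligand, was at 2561 ± 87.1 FPKM in METTL3-HKD and 3166 ± 479 FPKM in METTL3-Flox and did not pass. Nor did Saa1 (log2 fold change -0.74) and Saa2 (-0.71), acute-phase proteins that bind Fpr2 and whose near-identical sequences make the split of reads uncertain.

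Anxa1, the Fpr2 ligand annexin A1, was at 13.2, 5.29, 5.33 and 4.75 FPKM in METTL3-HKD and at 1.65, 2.09, 0.933 and 2.07 FPKM in METTL3-Flox. It rose by a log2 fold change of 1.94 (SE 0.355, limma adjusted p = 0.0111) and passed in 17 of 17 alternatives. Lpcat2, which makes platelet-activating factor in activated leukocytes, was at 2.54, 1.36, 0.931 and 1.30 FPKM in METTL3-HKD and at 0.810, 0.548, 0.757 and 0.623 FPKM in METTL3-Flox. Its log2 fold change was 0.98 (SE 0.274, limma adjusted p = 0.0431), and the call was kept in 5 of 17 alternatives. It was lost on leaving out any liver except METTL3-HKD liver 3. The count of genes that fell was 2 without METTL3-Flox liver 3.

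Of 33 genes that act downstream of these receptors, 8 rose (beside 9.05% of all genes), 0 fell in limma (beside 6.63%) and 25 did not pass. The 8 that rose were also those with an unadjusted p under 0.05 in limma, and the median log2 fold change was 0.28. Among the G protein subunits, Gnai3 was at 46.3, 44.2, 42.4 and 44.1 FPKM in METTL3-HKD and at 30.8, 36.5, 33.1 and 37.8 FPKM in METTL3-Flox (log2 fold change 0.36, SE 0.0887, limma adjusted p = 0.0294). Gnb1 rose by 0.46 (SE 0.112, limma adjusted p = 0.0289), while Gnai2 (0.09) and Gnb2 (0.04) did not pass.

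Ncf4 and Ncf1, cytosolic subunits of the phagocyte NADPH oxidase, both rose. Ncf4 was at 4.31, 2.79, 2.25 and 2.42 FPKM in METTL3-HKD and at 2.02, 0.827, 1.17 and 1.14 FPKM in METTL3-Flox (log2 fold change 1.15, limma adjusted p = 0.0273), and Ncf1 was at 6.53, 3.04, 2.43 and 2.73 FPKM against 1.69, 1.15, 1.53 and 1.71 FPKM (1.13, limma adjusted p = 0.0335). Pik3r5, the regulatory subunit of the phosphoinositide 3-kinase driven by G protein βγ, also rose (1.10, limma adjusted p = 0.0499). Pik3r5 falls outside the rule for named genes in this list and was added after its values were seen. The membrane subunit Cyba was at 27.5, 19.2, 9.70 and 11.5 FPKM in METTL3-HKD and at 16.0, 9.47, 14.5 and 10.3 FPKM in METTL3-Flox and did not pass.

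The Src-family kinase Fgr rose from 1.55 ± 0.163 to 3.67 ± 1.65 FPKM (SD, n = 4, log2 fold change 1.11, limma adjusted p = 0.0207), while its relative Lyn was at 10.1 ± 0.510 and 10.2 ± 1.95 FPKM. Rgs18, a regulator of G protein signalling known from platelets and myeloid cells, was at 0.392, 0.266, 0.164 and 0.238 FPKM in METTL3-HKD and at 0.0693, 0, 0.0324 and 0 FPKM in METTL3-Flox. It passed (limma adjusted p = 0.0192), but it reached the minimum mean only through METTL3-HKD. It had 6 to 16 reads in each METTL3-HKD liver and 0 to 2 in each METTL3-Flox liver, so its fold change depends on the pseudocount and is not given. Leaving out METTL3-Flox liver 3 left 1 of the 33 signalling genes past the threshold, and leaving out METTL3-HKD liver 2, METTL3-Flox liver 2 or METTL3-Flox liver 4 left 2. Without METTL3-HKD liver 1, 4 passed, and without METTL3-HKD liver 4, 5. Over the 17 alternatives the call was kept in 14 for Fgr, 12 for Ncf4, 11 for Gnai3 and 10 each for Gnb1 and Ncf1. Rgs18 and Pik3r5 were not fitted at a minimum mean of 1 FPKM, and their calls were kept in 16 of 16 and 4 of 16.

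**Figure D5:**
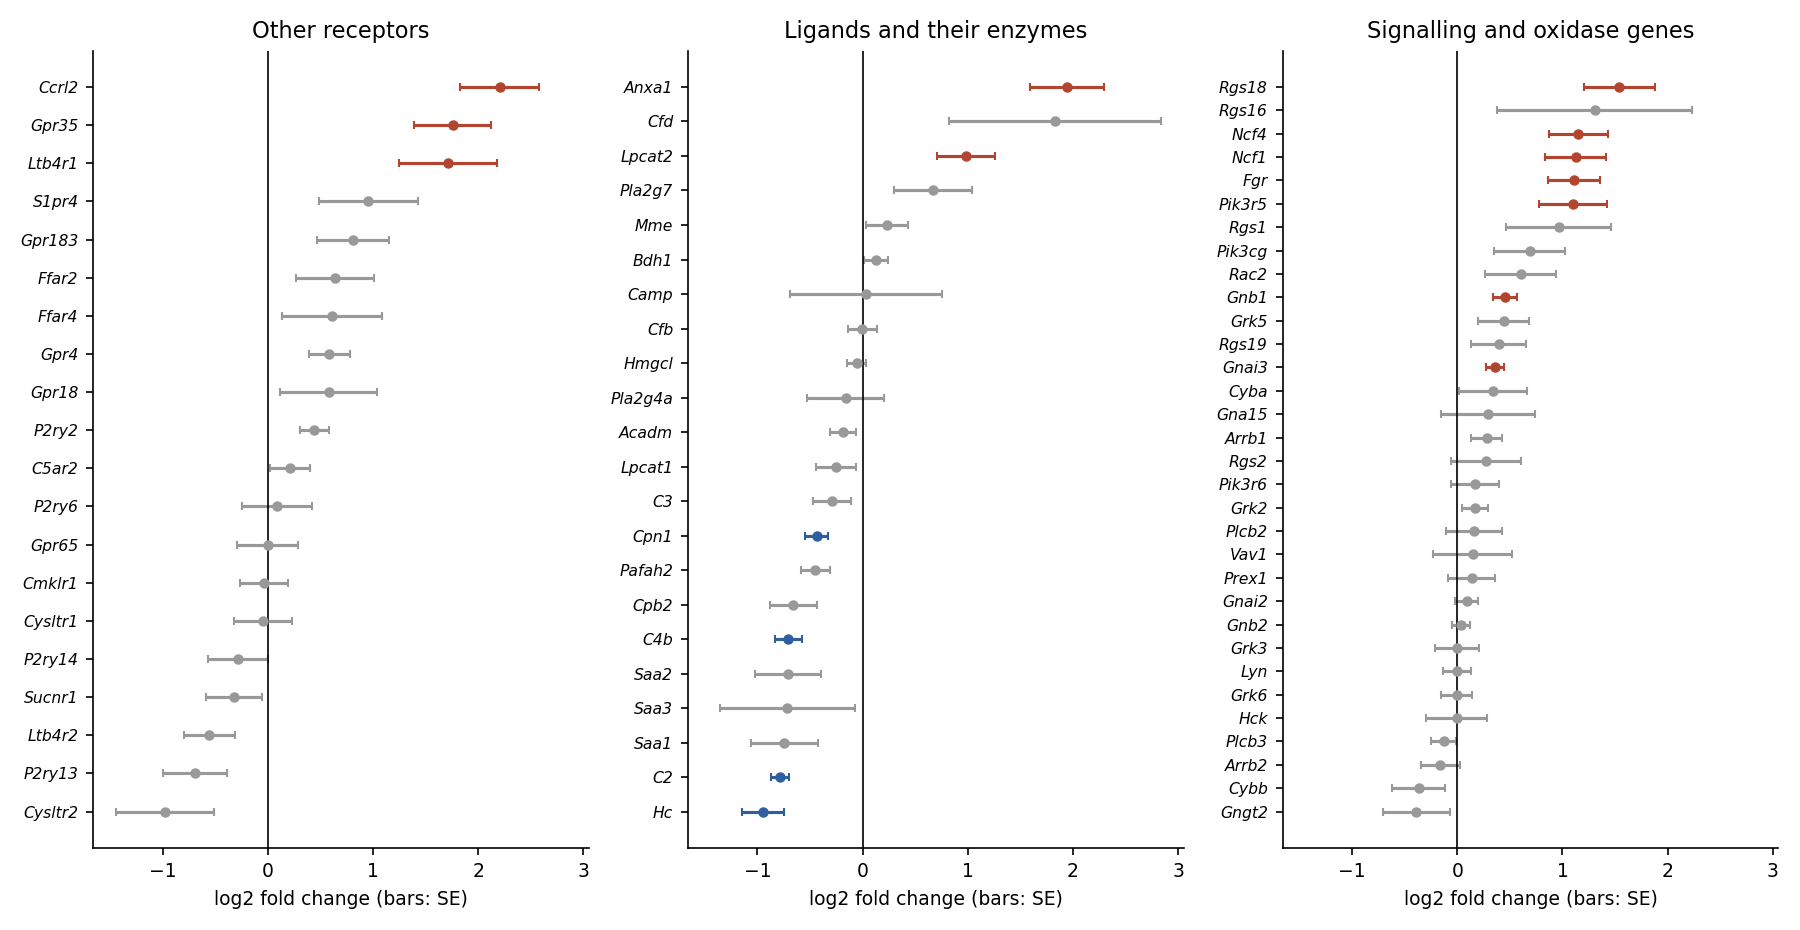
Log2 fold changes (METTL3-HKD against METTL3-Flox, bars SE) of the other receptors, ligand genes and signalling genes tested, apart from single genes not reported here, coloured where they passed (in the colour of the group that was higher) and grey where they did not. The ligand genes include 4 that were lower in METTL3-HKD past the threshold (beside 6.63% of all genes), and the other lists 0.

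The nearest protein-coding genes on either side of the receptors did not all share a direction. The log2 fold change was above 0 for 8 of the 10 tested, with a median of 0.22. Apart from Fpr1 and Fpr2 themselves, 14 neighbours were listed and 10 tested, of which 2 rose (beside 9.05% of all genes), 1 fell (beside 6.63%) and 7 did not pass. Has1, a hyaluronan synthase 21265 bases from Fpr1, was at 1.30, 0.228, 0.429 and 1.16 FPKM in METTL3-HKD and at 0, 0.178, 0.0146 and 0.0412 FPKM in METTL3-Flox (log2 fold change 2.35, SE 0.530, limma adjusted p = 0.0218). Has1 reached the minimum mean only through METTL3-HKD, with 19 to 118 reads per liver against 0 to 13 in METTL3-Flox. Its log2 fold change ran from 0.70 to 4.14 over the alternatives, so its call is not offered as support. Cdca4, 21449 bases from Gpr132, rose by 1.02 (SE 0.226, limma adjusted p = 0.0203). Zfp385a, 3282 bases from Gpr84, fell by 0.75 (limma adjusted p = 0.0143). Foxj2, 1771 bases from C3ar1, had a log2 fold change of 0.08. Hcar1, 11236 bases from Hcar2, did not reach the minimum mean. The 2 calls of genes that rose were lost, both together, without METTL3-HKD liver 1, without METTL3-Flox liver 3 or without METTL3-Flox liver 4, and 1 was lost without METTL3-HKD liver 2, METTL3-HKD liver 4 or METTL3-Flox liver 2.

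The genes with the most similar profiles over the 8 livers were found by the root mean square difference of log2(FPKM + 0.1) after each gene was centred on its own mean, among 12450 genes. Nearest to Hcar2 were Acod1, which makes itaconate in activated macrophages (0.371 log2 units), the lactate transporter Slc16a3 (0.485) and the prostaglandin synthase Ptgs2 (0.519). Acod1 was at a mean of 10.3 FPKM in METTL3-HKD and 0.217 FPKM in METTL3-Flox, and the other 2 were likewise below 1 FPKM in METTL3-Flox. Nearest to C5ar1 were Plek (0.210), Upp1 (0.248) and the inflammasome sensor Nlrp3 (0.250), and nearest to C3ar1 were Mcl1 (0.105), Abcc4 (0.161) and Itpkb (0.183). Fpr1 was nearest to Fermt3 (0.208), the pseudogene Smt3h2-ps4 (0.217) and Slc11a1 (0.228), and Fpr2 to Fgd3 (0.235) and Cd53 (0.322). Gpr132 was nearest to Procr (0.173) and Slc2a6 (0.275).

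Ptafr was nearest to the haemoglobin genes Hbb-bt (0.311) and Hba-a1 (0.351) and to S100a6 (0.350). Hbb-bt had a mean of 28.7 FPKM in METTL3-HKD and 3.37 FPKM in METTL3-Flox, and Hba-a1 112 and 12.1 FPKM, and reads of these genes may be split with their near-identical copies. Gpr84 was nearest to 4930413G21Rik (0.223), Tctex1d2 (0.228) and Uprt (0.228), among 12451 genes. The likeness is over 8 livers in 2 groups, so genes that differ between the groups by a similar amount come out near each other, and it says nothing of shared control.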

How the data were processed

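RNA was taken from whole livers of 8 mice, and the labels name the SMARTer mRNA-Seq kit for the libraries. The authors deposited 1 table of FPKM for 54532 genes with each gene's length, in which the values had been scaled between libraries, and it held no columns of other samples and none of fold changes or p-values. GRCm38 (mm10) is the build in the submitters' processing notes, while aligner, counter, annotation and strand setting are not given in the sources used here.

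FPKM times gene length and an effective library size gave whole reads, within 0.01 read, for 100% of non-zero values, and these reads give the depth of 15861245 to 18434488 per liver. Such reads carry no molecular identifiers. The 16645 genes whose mean reached 0.1 FPKM were compared as log2(FPKM + 0.1) in limma 3.58.1 (R 4.3.3) with a mean-variance trend, two-sided, with Benjamini-Hochberg adjustment over all of them. A gene passed at an adjusted p under 0.05. Fold changes on this scale understate those of low genes. Each replicate was 1 mouse. The method was tested on simulated data in which genes varied independently and changes were set only in genes with enough reads. That test does not cover genes with few reads or a liver that stands apart in many genes. Marker sums were compared by an exact permutation test over the livers.

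The receptors and all gene lists were chosen with earlier results of these data known. Named are the receptors, the genes of each other list that passed (at most the 6 of smallest adjusted p in each direction) and up to 4 of the highest mean that did not, cell type markers, neighbours, the 3 genes of nearest profile, and Mettl3. Some single genes that this rule names are not reported here. No 2 libraries agreed within sampling noise.

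The alternatives were no trend, a pseudocount raised to 1 FPKM, no minimum or one of 1 FPKM, array quality weights, a replicate block, median-of-ratios scaling, scaling to the reads on genes, voom on the rebuilt reads, and leaving out each liver. Marker sums were also compared as means of log2 values.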

Additional observations from a re-analysis of the deposited data

Results flagged for a closer look

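In 20 of the 158 sets of 4 livers examined (each group's values for the receptors, their neighbours, the pathway and marker genes that passed, and the marker sums), 1 liver stood apart from the other 3 by Dixon's criterion, which sets the gap to the nearest liver against the whole range of the group. Chance would give about 1 in 20 such sets if the values were normally distributed. The criterion was applied to FPKM without logarithms, and every value flagged was the highest of its set. The sets also share livers, so the count cannot be judged against 1 in 20.

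Of the receptors, Fpr1 (gap 0.961 of the range, 11.6 FPKM) and Fpr2 (0.896, 11.9 FPKM) stood apart in METTL3-HKD liver 1, and Ptafr (0.970, 0.868 FPKM) in METTL3-Flox liver 2. In METTL3-HKD liver 1 the same was true of Anxa1 (0.931, 13.2 FPKM), Pik3r5 (0.879, 1.74 FPKM), Fgr (0.875, 6.14 FPKM) and Ncf1 (0.851, 6.53 FPKM). The summed neutrophil markers of that liver also stood apart (0.833, 1668 FPKM), as did the neutrophil markers S100a8 (0.861), Retnlg (0.895), Mmp8 (0.922) and Mmp9 (0.901) and the monocyte markers Chil3 (0.872) and Vcan (0.873). METTL3-Flox liver 2 was high for the monocyte markers Ccr2 (0.845) and F13a1 (0.868). METTL3-Flox liver 1 was high for the Kupffer cell markers Clec4f (0.871) and Vsig4 (0.902). It was also the only METTL3-Flox liver above 0 for the neutrophil markers Ly6g (1.0, 2 reads) and Stfa2l1 (1.0, 3 reads).

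Thus 13 of the 20 values came from METTL3-HKD liver 1, 4 from METTL3-Flox liver 1 and 3 from METTL3-Flox liver 2. Without METTL3-HKD liver 1 the log2 fold change was -0.16 for Fpr1 and 0.83 for Fpr2, and the neutrophil ratio of METTL3-HKD to METTL3-Flox was 15.5. Why these livers differ was not tested.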

How the results depend on the processing

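Of the 8 receptors, 4 passed at the settings used and 3 to 5 under the 17 alternatives, with Gpr132 and Gpr84 not fitted at a minimum mean of 1 FPKM. Hcar2, C5ar1 and Ptafr passed in all 17 and Gpr132 in all 16 in which it was fitted. The receptors were chosen on this contrast in the same livers. Their calls under any setting thus show how they depend on that setting and are no support for the differences. Of the log2 fold changes of receptors, only that of Fpr1 changed sign, at -0.16 without METTL3-HKD replicate 1, with 0.40 as the highest value on leaving out a liver. Replicate numbers 1 to 4 occur in both groups, but same-numbered livers did not deviate together (r = 0.07, -0.08, -0.01 and -0.03 over genes), so nothing shows that the numbers pair the mice. With a replicate block, 971 of all genes were higher (1506 without it) and 645 lower (1104 without it), with 1 neighbour and 5 signalling genes higher, and the block kept the calls of all 4 receptors. Scaled to reads on genes, 2303 were higher and 374 lower, with 4 neighbours higher and 0 lower and 5 related receptors higher, and the marker ratios became 2.83 (pan-leukocyte), 1.03 (hepatocyte) and 1.02 (stellate cell). With no minimum, 682 genes were lower, 1 ligand gene and 5 signalling genes higher. Of the ligand genes 1 was higher with a pseudocount of 1 FPKM, with no trend or with voom, and 3 signalling genes were higher with no trend. As a mean of log2 values, the monocyte ratio was 3.63, the hepatocyte ratio 0.770 and the neutrophil ratio 13.1 (26.5 from the sums).

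Leaving out each liver gave 737 to 1653 genes higher and 347 to 1123 lower, 0 to 3 neighbours, 1 to 3 related receptors, 1 to 2 ligand genes and 1 to 8 signalling genes higher, and 2 to 5 ligand genes lower. The counts over all genes were 769 higher and 462 lower without METTL3-HKD liver 1, 842 and 546 without METTL3-HKD liver 2, 889 and 529 without METTL3-Flox liver 2, 737 and 347 without METTL3-Flox liver 3, and 878 and 528 without METTL3-Flox liver 4. The marker ratios ran from 15.5 to 34.0 (neutrophil), 0.971 to 1.07 (monocyte), 0.408 to 0.516 (Kupffer cell), 0.528 to 0.697 (macrophage), 1.71 to 2.73 (pan-leukocyte), 0.983 to 1.33 (B cell) and 0.975 to 1.04 (endothelial). The unadjusted exact permutation p ran from 0.0286 to 0.0857 for neutrophil and from 0.0286 to 0.0571 for Kupffer cell markers. Of 438 alternative values in all, 367 kept their direction and side of the threshold or stayed within 1.5 times their count. Fewer livers leave fewer degrees of freedom, and the cause of the other changes was not tested. Among the receptors, counts were lowest for Gpr84, at most 18 reads in a liver, and for Gpr132, at most 7 in a METTL3-Flox liver.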
